A study of Mus musculus with 12 samples.

Results

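The m6A map of wild-type M1-type mouse macrophages held 10290 peaks in 5447 genes. It was taken whole from the list that the authors made by setting RNA fragments pulled down with an m6A antibody against the input RNA of the same cells, with 2 antibody and 2 input libraries. These peaks make up 10290 of the 28133 distinct peak regions used from the series. The rest are 17843 regions taken as bound by YTHDF2 in wild-type cells. Their list was assigned to YTHDF2 by its name alone, while its peak names begin with m6a_peak.

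Bone marrow cells of C57BL/6 mice had been cultured for 7 days in 20 ng/ml of the macrophage growth factor M-CSF, then exposed for 24 hours to 100 ng/ml LPS together with 20 ng/ml interferon gamma. All groups used here shared this treatment. Polyadenylated RNA was broken into pieces of about 100 nucleotides, and 5 µg went into each m6A pulldown. The expression level of each gene came from the m6A input RNA of wild-type cells and of cells with a conditional knockout of Ythdf2, 2 libraries each; the sources used here do not give the driver of that knockout. The labels number the replicates but do not say whether they are separate mice or cultures.

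N6-methyladenosine (m6A) is the most abundant internal mark of mammalian mRNA. A complex around METTL3 and METTL14 writes it co-transcriptionally on adenosines in a short consensus with GGAC at its centre, FTO and ALKBH5 can remove it, and YTH-domain proteins read it. YTHDF2 recruits deadenylases to marked mRNAs and speeds their decay. The mark is known to concentrate near stop codons, in 3′ UTRs and in long internal exons, and antibodies to it also bind m6Am, the methylated adenosine that can follow the cap.

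The list gives each peak as a gene name, a strand and a start and end, with no height, p-value or value per library. A gene therefore either has listed peaks or has none, and a shallowly covered gene can lack a listed peak at any level of methylation. Depth per library is unknown. Spans are on the genome and include introns, so a wide span can be a short stretch of spliced RNA. The longest span was 9999 bp, with 76 peaks of 9000 bp to 9999 bp and 0 of 10000 bp or more. Whether wider peaks had been left out is not stated, and a gene whose peaks would all be wider would appear here without m6A.

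Most macrophage markers were abundant. Of 15 macrophage markers all were in the expression table, at mean normalized counts of 94.7 to 204979 (median 11769), with Cd68 at 33157, Csf1r at 29752 and the myeloid factor Spi1 at 14938. The lowest were Cx3cr1 at 94.7, Mrc1 at 416 and Cd80 at 437. The 11 M1 markers ran from 19.6 to 88980 (median 5007). Acod1 and Nos2 stood at 88980 and 31637, while the cytokine genes Il12b and Il6 were low, at 19.6 and 108. Markers of T and NK cells reached 14.5 at most, those of dendritic cells 30.1 and those of mast cells and basophils 10.3. Among B cell markers Blnk stood at 3745, while Pax5, which defines these cells, was at 1.51. The 7 fibroblast markers ran from 2.95 to 580 (median 169), with Col1a1 and Col1a2 the highest at 559 and 580. The 12 neutrophil markers had a median of 20.5. Csf3r stood at 8496, Mmp8 at 987, S100a9 at 326 and S100a8 at 304, while Mpo and Elane were at 1.08 and 0.48. The part of other cells in the map was not tested.

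The sequences that can be shown under m6A peaks here are those at gene starts, from RefSeq (GRCm38.p6, the coordinates of mm10). In 26 genes a peak of at most 1000 bp covered the gene start or ended within 25 bp of it and lay over a GGAC among the first 50 transcribed bases. The 5 of highest mean count are printed, with the immediate early gene Jun and the cytokine gene Tnf, picked with their values known. Each is 20 bases of the transcript's strand as DNA, and the capitals mark GGAC.

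Grn: gggagcccGGACcccgacgc

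Lilr4b: gacaggaaGGACctgccctc

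Slc11a1: actcactcGGACcagcaccc

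Arhgdia: ccgagcggcgggcggcGGAC

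Mmp14: gaagggagGGACcaaaggag

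Jun: ctggataaGGACtcagagtt

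Tnf: ctcagcgaGGACagcaaggg

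The Grn bases lie at chr11:102430519-102430538 (+ strand) under its 1 peak, of 175 bp. Grn encodes progranulin, a lysosomal growth factor precursor. The Lilr4b bases lie at chr10:51480612-51480631 (+), where the 50 bp peak begins on the same base. Those of Slc11a1, the phagosomal metal transporter, lie at chr1:74375219-74375238 (+). Those of Arhgdia lie at chr11:120581575-120581594 (-). Those of Mmp14, a membrane-bound metalloprotease, lie at chr14:54431607-54431626 (+). In Jun they lie at chr4:95052191-95052210 (-) and in Tnf at chr17:35201976-35201995 (-). In both Jun and Tnf the motif begins at base 21 of the transcript and the peak spans 89 bp. These letters show that a consensus lies inside a peak, and nothing about which adenosine was methylated.

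GGAC was no more frequent at starts with a peak than at other starts. It lay on the transcript's strand within the first 50 bases of 42 of 252 such starts, or 16.7% (95% Wilson interval 12.6 to 21.8). It lay in 19.6% of 4886 other starts of m6A genes, in 20.0% of 10661 starts of tested genes and in 18.9% of all 32851 starts in the table. GGACT, which always holds a GGAC, was at 5.56%, 5.51%, 5.29% and 5.76%. The first transcribed base was A at 84 of the 252 starts with a peak, or 33.3% (27.8 to 39.4), against 27.8% of the other starts of m6A genes and 28.4% of the starts of tested genes. Of all starts in the table, 34.4% began with A. Intervals here and below cover counting error only, and starts of 1 gene are not independent.

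Most m6A genes had few peaks. Of the 5447 genes, 2870 had 1 peak, 1426 had 2 and 613 had 3, and the mean was 1.89. Altogether 2577 genes, 47.3% (46.0 to 48.6), had more than 1, and these held 72.1% of all peaks. At the upper end, 271 genes had 5 or more and 15 had 10 or more. Many neighbouring peaks may be pieces of 1 region: of 4843 neighbouring pairs within a gene, 1701 (35.1%) lay at most 200 bp apart, and the median gap was 525 bp. Joining those pieces left 8588 regions and 36.5% of genes with more than 1. Joining peaks up to 1000 bp apart left 27.0%.

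**Figure D1:**
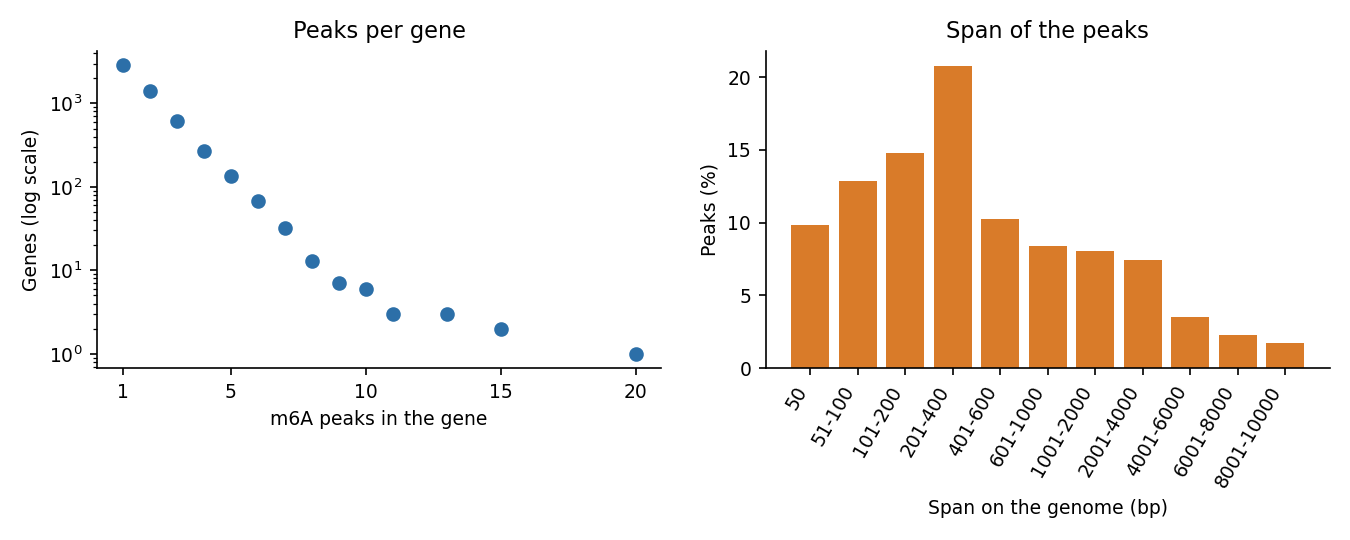
Left, the number of genes (log scale) with each number of m6A peaks, a point for each number that occurs: 2870 genes with 1 peak down to 1 gene with 20. Right, the percent of the 10290 peaks by span on the genome in bp: the bin of 201 to 400 bp is the fullest at 20.8%, and the bins are unequal in width.

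Spans ran from 50 to 9999 bp with a median of 325 bp and quartiles of 125 and 875 bp. A span of exactly 50 bp was the most common, in 1014 peaks (9.85%), and 71.7% of spans were multiples of 25 bp, so the list has the grain of sliding windows. Spans over 1000 bp made up 23.1% (2372 peaks). The widest lay over Upf2, a nonsense-mediated decay factor, at 9999 bp. Next came Ttc1 at 9990, Igbp1 at 9979, Slc25a30 at 9973 and Dnmt1, the maintenance DNA methyltransferase, at 9949 bp. Upf2 also had a 550 bp peak centred 488 bp after the end of its coding sequence.

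Several of the genes with the most peaks encode very large proteins. Ahnak, a giant scaffold protein with most of its coding sequence in 1 exon, had 20, and all lay within chr19:8999002-9018613, between 12% and 33% of the gene's length. Macf1, which links actin to microtubules, and Bod1l, which protects replication forks, had 15 each. Tpr of the nuclear pore basket, the centrosomal protein gene Cep350 and the transcriptional repressor gene Spen had 13 each. Phf3 and Gm1966 had 11 each and Helz2, an interferon-induced helicase, had 10. In Helz2 the peaks fell into 1 near the start, 6 between 41% and 70% of the gene and 3 in its last 10%. Their mean counts ran from 1481 (Gm1966) to 30458 (Ahnak).

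Gene names on the list are not always those of the gene a peak lies in. Parp10 was listed with 11 peaks, but 3 lay inside Parp10 and 8 inside Plec, the gene of the cytolinker plectin, which has no peak under its own name. In all, 347 peaks had their midpoint outside the named gene and inside exactly 1 other gene of the same strand, 178 genes in total. Another 85 had it inside both the named gene and another gene of that strand. Those 85 count for the named gene only, also where peaks under other names are added below. Of 152 peaks named for 74 microRNA genes, 9 overlapped the named hairpin and 141 lay in a host gene. Zeb2, a zinc finger repressor gene, held 7 peaks under the name Mir5129. The chromatin remodeller Chd4 held 6 under Mir7045, the acetyltransferase Ep300 6 under Gm23880 and Irf9, the DNA-binding part of the interferon-activated factor ISGF3, 3 under Rnf31. Hspa8, a constitutive chaperone, held 2 under Snord14c, and Tapbp, which loads MHC class I, 3 under Zbtb22. The choice of these genes followed a look at their values.

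Some assignments rest on strand. Of the 9289 peaks that could be placed on a chromosome, 384 (4.13%) overlapped a peak of a gene on the other strand, and 182 of them shared over 50% of the longer. On the same strand 2 did. Without a stated strand setting, reads from such pairs cannot be told apart. Reads of near-identical copies (ribosomal proteins and their pseudogenes, H2, Gbp, Ifit and Ccl genes) may also have been split between copies, and how they were counted is not given.

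m6A peaks gathered at the 3′ end. Along placed genes, 39.2% of peak midpoints (38.2 to 40.2; 3640 of 9289) lay in the last 10% of the gene and 15.1% in the 10% before that. The first 10% held 6.61% (6.12 to 7.13), more than any other of the first 6 bins, which held 3.85% to 5.22%. Midpoints less than 1000 bp outside the gene were counted in the nearer end bin. Genes with 1 peak had it in the last 10% more often, at 48.5% of 2575, while genes with 5 or more had 30.4% of their 1420 peaks there. Within 2000 bp of the gene end lay 35.2% of peaks, and within 2000 bp of its start 11.2%.

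In genes with a known end of the coding sequence, peaks clustered just after the stop codon. That end was known for 4277 genes, from the transcript features of the YTHDF2 list. It is thus restricted to genes where YTHDF2 peaks touched both the coding piece and the adjoining 3′ UTR piece. Such a choice favours genes with YTHDF2 signal near the boundary, and its effect on the values below was not tested. Of the 4277 genes, 2503 carried m6A peaks. In 1070 (42.7%) a peak lay across the boundary. Among 3766 peaks of at most 1000 bp in these genes, 642 had their midpoint within 200 bp after the boundary and 305 within 200 bp before it. The fullest 100 bp bin was that from 100 to 200 bp after it, with 338. Within 400 bp on either side lay 38.8%. A further 36.1% lay over 2000 bp upstream on the genome, a distance that counts introns. Actb, the cytoskeletal actin gene, had its 1 peak (chr5:142903390-142903739) 234 bp past the boundary. In Acod1, which makes itaconate in activated macrophages, an 850 bp peak was centred 242 bp past it. In the myeloid factor gene Spi1 a 545 bp peak was centred 90 bp past it, beside a 7740 bp span in the first part of the gene.

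**Figure D2:**
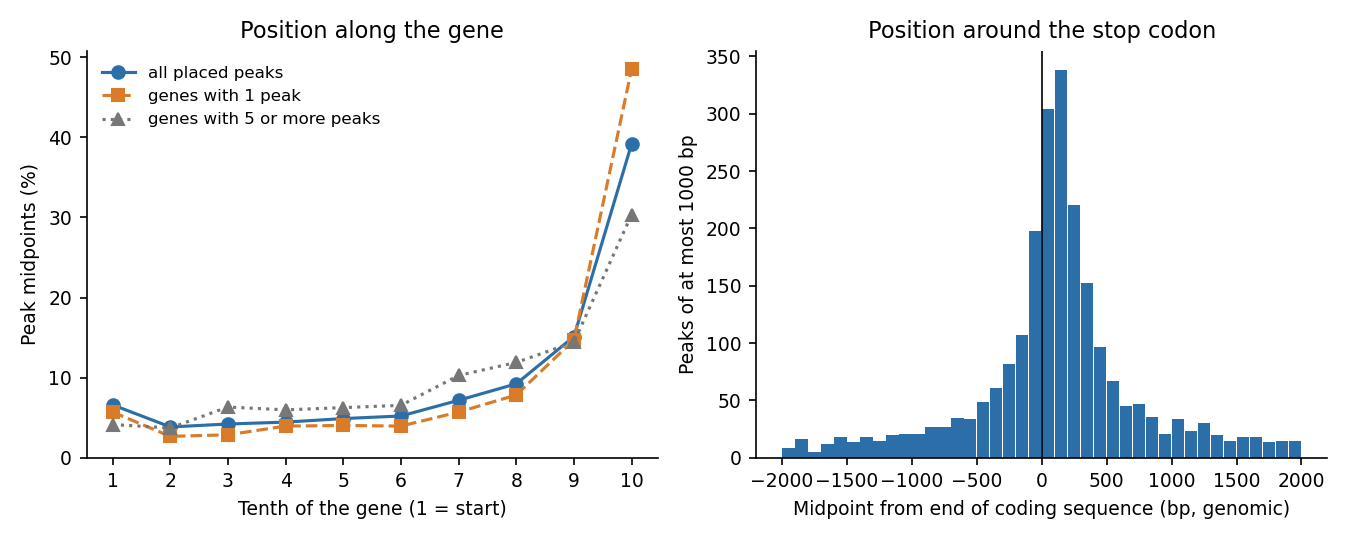
Left, the percent of peak midpoints in each 10% of the gene from start to end, for all 9289 placed peaks, for genes with 1 peak and for genes with 5 or more: all rise at the 3′ end, to 39.2%, 48.5% and 30.4%. Midpoints just outside the gene are counted in the nearer end bin. Right, the number of peaks of at most 1000 bp by midpoint distance in bp from the end of the coding sequence, in 100 bp bins on the genome. Only genes where that end was known are covered, and the bins from 0 to 200 bp after it hold 642.

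A smaller set of peaks sat at the gene start. Within 200 bp after it lay the midpoints of 202 peaks in 199 genes, with a median span of 125 bp. Of the 184 tested genes among them, 51 had all their peaks there. The highest of these 51 in mean count were Grn, Ifitm3, Efhd2, Cd52 and Ccl9. Ifitm3, a membrane protein that blocks virus entry, had a 75 bp peak centred 14 bp after its start. Cd52, a surface glycoprotein of leukocytes, had a 62 bp peak centred 21.5 bp after its start. In the chemokine gene Ccl9 peaks of 100 and 50 bp lay 94.5 and 194.5 bp in. Gpnmb, Lilr4b, Gnai2 and Mx1, which RefSeq lists as a transcribed pseudogene in this reference, had a start peak beside others. Lyz2 and Acod1 had peaks of 66 and 50 bp centred 16.5 and 10.5 bp upstream of the RefSeq start.

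**Figure D3:**
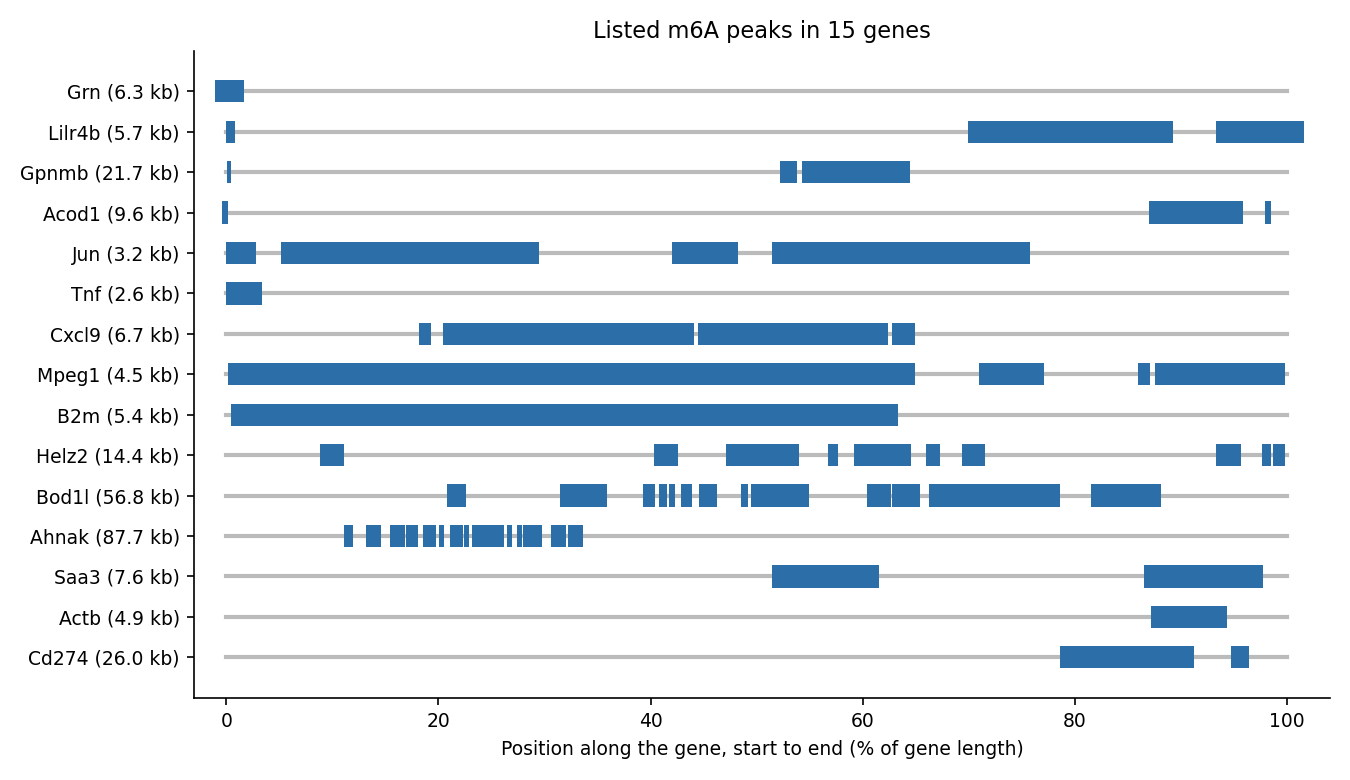
Listed m6A peaks (blue) along 15 genes, chosen after their values were seen, in percent of gene length from start to end; gene lengths in kb stand beside the names, and peaks under 0.4% of a gene are drawn at 0.4%. In Grn and Tnf the 1 peak is at the start, in Actb near the end, and in Ahnak all 20 lie between 12% and 33%.

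Whether a gene had a peak went with its expression. Of 10778 tested genes (those to which the authors' comparison gave an adjusted p, with a mean count of at least 48.0), 4888 carried a peak, 45.4% (44.4 to 46.3). In equal groups by mean count the share rose at each step from 7.98% in the lowest 10% of genes to 68.4% in the highest. The intervals of neighbouring groups overlapped between the middle pair and among the top 3. The share of carriers with more than 1 peak went from 32.6% to 60.7%, with 22.0% in the group after the lowest. The median mean count was 1337 in genes with a peak and 377 in those without. Counts are not per length, so long genes stand higher than short genes at the same number of molecules. Of the 16235 genes below the test's filter, 1.68% had a peak.

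The share varied less with gene length on the genome. The shortest 10% of tested genes (61 to 3715 bp) carried peaks in 30.3%, the next 42.3%, and the share stayed between 44.7% and 53.7% thereafter. The shortest also had the lowest median mean count, 284. Among the protein-coding genes in the highest 10% by expression, 729 had a peak and 327 had none. These differed little in median length (22530 and 20137 bp) and median mean count (7915 and 7447).

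**Figure D4:**
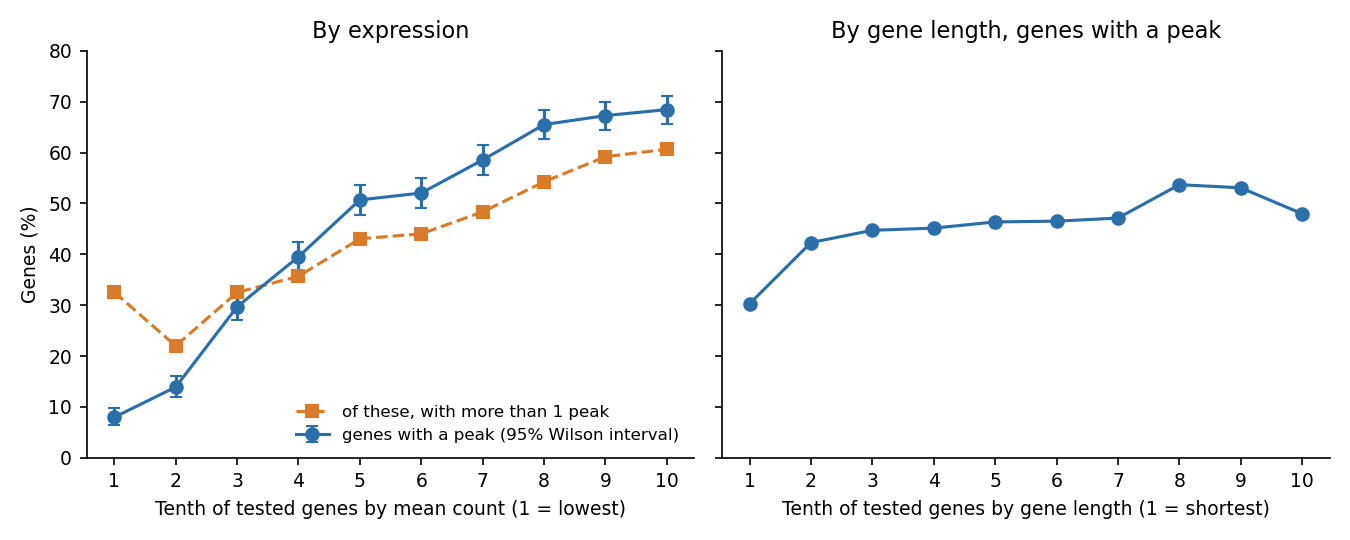
Left, the percent of tested genes with a peak (circles, 95% Wilson interval) and, of those, the percent with more than 1 (squares) by equal groups of mean count, lowest to highest: the share with a peak rises from 7.98% to 68.4%. Right, the percent with a peak by equal groups of gene length, from 30.3% in the shortest.

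The abundant transcripts were divided. The ferritin heavy chain gene Fth1, the acute-phase gene Saa3 and the cathepsin gene Ctsb carried 2, 2 and 1 peaks at mean counts of 1665000, 861849 and 439690. Gpnmb, a lysosomal glycoprotein gene of activated macrophages, had 3. The MHC class I genes H2-K1 and H2-D1 had 3 and 1, and their partner B2m had 1, of 3393 bp. Rsad2, the antiviral enzyme viperin, had 2 and Mpeg1, the pore-forming perforin-2, had 4. Lyz2, Lars2, Tmsb4x, Tnfrsf1b and Actb had 1 or 2 each. By contrast Psap, the precursor of lysosomal saposins, had no listed peak at a mean count of 429499. The same held for the chemokine gene Ccl5 (146220), the peroxidase gene Prdx1 (136531) and the macrophage receptor gene Adgre1, or F4/80 (107430). It held for the lysosomal protease genes Ctsd (107345), Ctsl (94013) and Lgmn (86067), the ferritin light chain gene Ftl1 (104195) and the glycolytic gene Pkm (81695). Itm2b, Ifit2, Vim, Hmox1 and Lgals3 followed, at 84318 to 63333. Ctss (200529) has none of its own, but a 125 bp peak named for the pseudogene Hmgb1-ps5, which lies within it, is at chr3:95530843-95530967.

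Ribosomal protein and oxidative phosphorylation genes carried few peaks for their expression, while other housekeeping classes did not stand apart as far. For each class the number of carriers was set beside the sum of the shares of the expression groups its members fall in. Of 77 tested cytosolic ribosomal protein genes 15 had a peak, 19.5% (12.2 to 29.7), against a sum of 48.6. Rps24 had 2 and Rps19 3, while Rps9, Rplp0 and Rpl41 had none at 13298, 13146 and 9798. Counting peaks that lie in such genes under other names, such as snoRNAs in Rps3 and Rpl4, the number was 20 of 77, against 50.5. With gene length taken into the comparison as well, 15 stood against 37.0. Of 75 nuclear genes of oxidative phosphorylation, 15 had a peak against 43.0. Cox5b, a subunit of cytochrome oxidase, had 5, and Atp5b of ATP synthase had none at 15199. The mitochondrial ribosomal protein genes were near their sum, with 31 of 75 against 34.6. Proteasome subunits had 18 of 37 against 24.0 and translation initiation factors 25 of 55 against 32.5. Chaperonin and heat shock genes had 35 of 63 against 31.7, spliceosome genes 26 of 54 against 28.1 and aminoacyl-tRNA synthetases 14 of 34 against 15.6. The proteasome gene Psmd2 had 5, while Eif4a1, the helicase of cap-dependent initiation, had none at 13417.

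Lysosomal, chemokine and MHC class II genes also stood below. Of 30 cathepsin, lysosomal membrane and V-ATPase genes 9 had a peak against 18.1, a share of 30.0% (16.7 to 47.9). Of 18 chemokine genes 5 had one, 27.8% (12.5 to 50.9), against 10.3: Ccl9, Ccl3, Cxcl16, Cxcl10 and Cxcl9. Chemokine genes are short (median 3002.5 bp), and with length taken into the comparison the sum was 8.74. As a share of the 18 genes, that sum lies inside the interval. Cxcl9, a chemokine induced by interferon gamma, had 4. Ccl2 and Ccl7, which draw monocytes, had none at 37632 and 20290. None of the 7 tested MHC class II genes was listed (0 to 35.4% by the interval; sum 3.87). These include Cd74, the invariant chain, at 2818 and H2-Ab1 at 1301, as well as Ctss. Of 21 glycolysis genes 8 had a peak against 12.1, a share of 38.1% whose interval (20.8 to 59.1) includes the 57.4% of their expression groups. Hk3 had 3 and Hk2 4, and Ldha and Aldoa had none at 35686 and 35572.

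Regulators stood above. Numbered zinc finger genes, mostly DNA-binding repressors, had peaks in 133 of 260, 51.2% (45.1 to 57.2), against 82.1, at a median mean count of 297. Zfp36, an mRNA-decay factor that limits Tnf output, had 3. Of 91 chromatin regulators 62 had a peak against 50.3, and these held 207 peaks. The histone methyltransferase genes Kmt2d and Kmt2e had 8 each, and Brd2 and the corepressor gene Ncor1 7 each. Chromatin regulators are long (median 52255 bp), and with length taken into the comparison the sum was 53.5. As a share of the 91 genes, that sum lies just inside the interval of the observed 68.1% (58.0 to 76.8). Of 51 DEAD and DEAH box helicase genes 34 had a peak against 27.1, a share of 66.7% whose interval (53.0 to 78.0) includes the 53.2% of their expression groups. Immediate early genes had 18 of 24 against 12.3, and 11.8% of their 34 peaks lay in the last 10% of the gene. These genes are short (median 3887 bp), so this share does not compare directly with the 39.2% of all placed peaks. Jun had 4 peaks, centred in the first 64% of a gene of 3187 bp.

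Most innate sensors and macrophage lineage factors carried peaks. Of 15 Toll-like receptor and adaptor genes 13 had a peak against 9.43. Their share of 86.7% has an interval (62.1 to 96.3) that just includes the 62.8% of their expression groups. They had 43 peaks between them, 1 of which, named Ticam2, lay in Tmed7. Tlr7, a sensor of single-stranded RNA, had 5. Tlr4, which recognises LPS, had 4, as did Tlr2, Tlr9, Cd14 and Ticam1. The adaptor gene Myd88 and Ly96, the co-receptor of TLR4, had none at 3714 and 812. Of 18 macrophage lineage factor genes 15 had one against 10.2, and Maf had 9. Of 20 inflammatory cytokine and mediator genes 9 had one against 9.89. Il1b, Tnf and Ptgs2 had 1 each, Acod1 3, and Nos2 and Il1rn had none at 31637 and 57244.

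The interferon programme followed its expression. Of 30 type I interferon response genes 21 had a peak against 20.5, with Oasl1 at 4, Ifit1, Stat2 and Xaf1 at 3 and Ifit2, Bst2 and Usp18 at none. Guanylate-binding and immunity-related GTPase genes had 9 of 15 against 8.37, and 12 of 15 against 8.72 with peaks under other names. In the latter count the named gene stays a carrier. Peaks named Gbp4 that lie in Gbp8 or Gbp9, or named Igtp in Irgm2, can thus count for more than 1 member. Of the 26 peaks of this class, 18 could be placed. JAK, STAT, IRF and SOCS genes had 19 of 27 against 16.4, with Irf2 and Stat2 at 3. NF-kB, TRAF and A20 genes had 15 of 23 against 14.7. Tnip1 had 5 and Tnfaip3, the deubiquitinase A20, 3, while Nfkbia and Rela had none at 12663 and 3201. The immune checkpoint ligand gene Cd274 (PD-L1), chosen after its values were seen, had 2, a 3268 bp span and a 425 bp peak centred 1159 bp before the gene end.

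**Figure D5:**
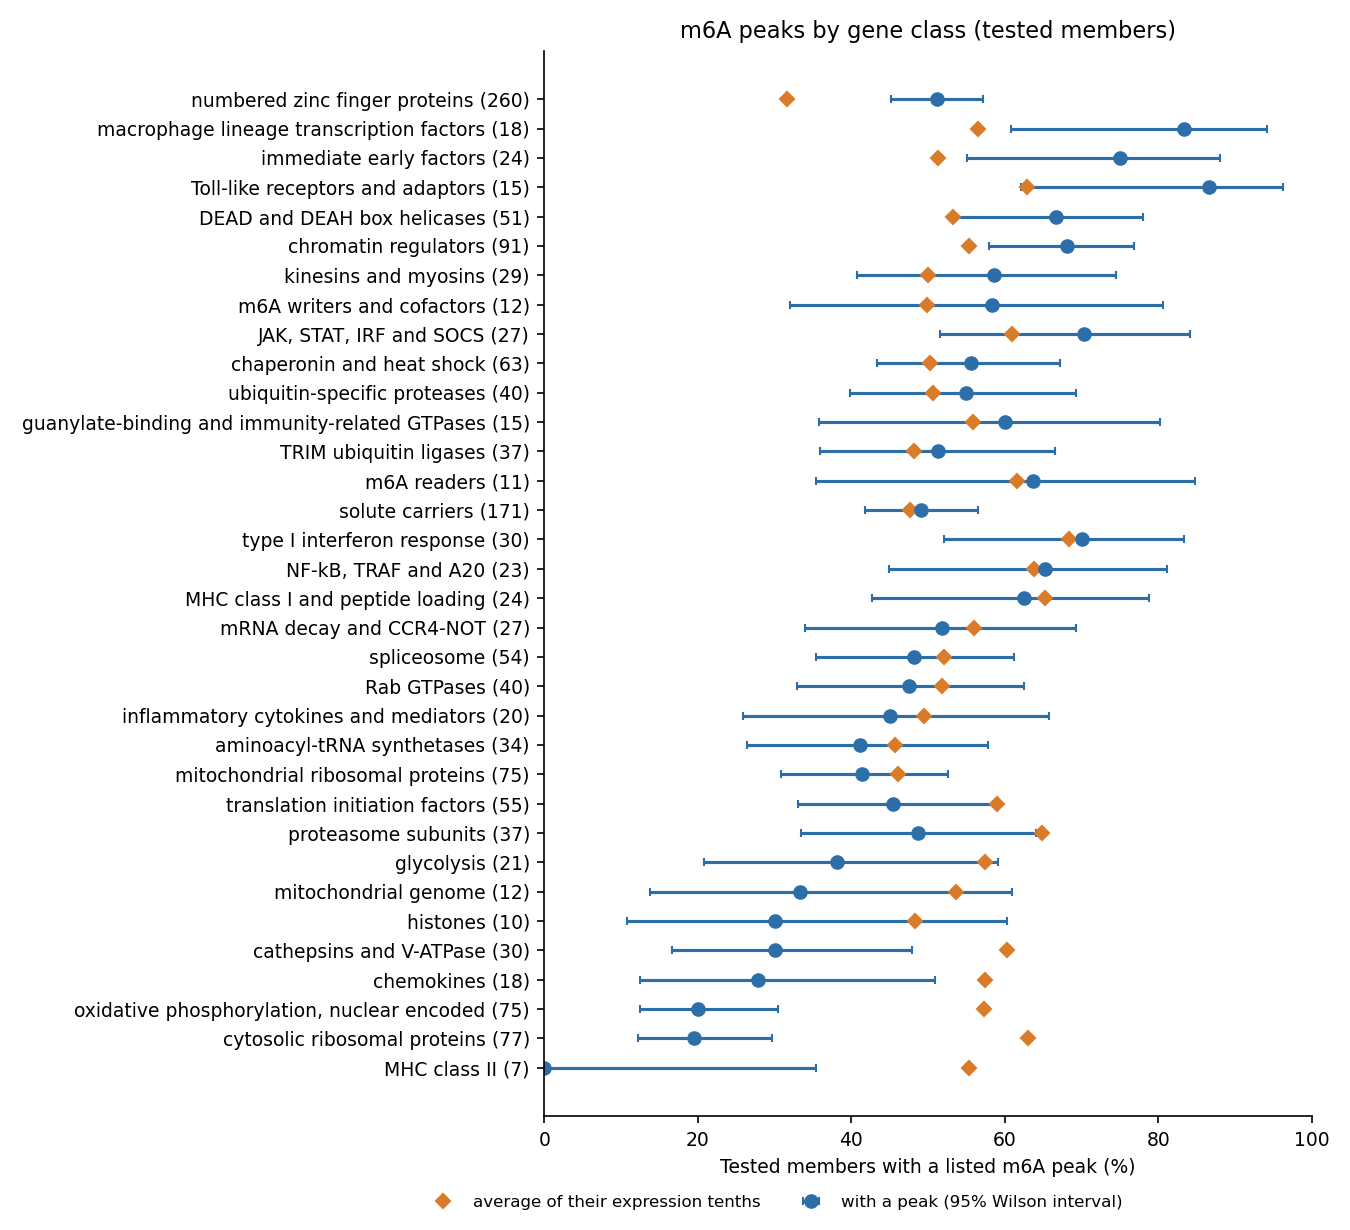
For gene classes of at least 7 tested genes (number in brackets), the percent of members with a listed peak (circle, 95% Wilson interval) and the average share of the expression groups its members fall in (diamond). Ribosomal protein, oxidative phosphorylation, lysosomal, chemokine and MHC class II genes lie left of their diamonds, zinc finger and lineage factor genes right of them.

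The m6A machinery was itself partly listed. Of 12 writers and cofactors 7 had a peak against 5.98. The catalytic pair Mettl3 and Mettl14 had none at mean counts of 466 and 342, while the regulatory subunit genes Zc3h13, Rbm15b, Wtap, Rbm15, Cbll1 and Virma had 6, 5, 3, 3, 3 and 1. Of the 5 peaks named Rbm15b, 2 lay inside it and 3 in the neighbouring gene Manf. The eraser gene Alkbh5 had 2 and Fto none. Among readers Prrc2a had 4, Ythdf1 and Hnrnpa2b1 3, Ythdf2 and Igf2bp2 2, and Ythdf3, Ythdc1 and Fmr1 none. The Ythdf2 peaks, of 250 and 350 bp, lay 50 bp apart in the first 27% of the gene.

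Long non-coding RNAs had peaks in 66 of 232 tested (28.4%) against a sum of 51.6. The nuclear RNAs Malat1 and Neat1, at 77190 and 32644, had none. BE692007 and Peak1os had 4 each, and the 4 named for 1810026B05Rik lay outside it, in the protein-coding gene Chd2. Pseudogenes had peaks in 42 of 334 (12.6%) against 67.5. Protein-coding genes had them in 4717 of 9949 (47.4%). Among the least expressed tested genes with 3 or more peaks were Hyls1, a ciliary gene, with 3 at 48.4 and the prostaglandin receptor gene Ptger1 with 3 at 49.2. Gm49730 and Gm17066 had 7 and 4, and could not be placed by RefSeq. All 3 peaks named Gm7666 lie in Fyb, an adaptor gene of leukocyte adhesion, 1 of them also within Gm7666, at a mean count of 27008 for Fyb and 87.2 for Gm7666.

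Nearly as many m6A peaks overlapped a YTHDF2 peak as did not. By at least 1 bp, 4550 of 9289 placed peaks did, 49.0% (48.0 to 50.0), which involved 23.1% of the 17843 YTHDF2 peaks. The share was 60.9% in the last 10% of the gene and 25.1% in the first. It was 58.0% in the highest and 33.7% and 18.1% in the lowest 2 expression groups. Peaks of at most 100 bp overlapped in 32.7%, wider ones up to 1000 bp in 56.6% and those over 1000 bp in 46.6%. Expression, span and position were not separated here, and the overlap ignores strand and gene name. How much other sequence of these genes lay under YTHDF2 peaks was not computed. These shares thus have no background beside them. It also rests on the YTHDF2 list being what its name says. With at least 50% of the m6A peak covered, the share was 30.8%, and with YTHDF2 peaks of at least 3-fold enrichment it was 19.3%.

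The study also compared input RNA between wild-type and knockout cells. By an adjusted p under 0.05 in the authors' deposited table, 2.32% of the tested genes were called, 1.76% with a positive and 0.557% with a negative log2 fold change. The table does not say which genotype is the numerator; Ythdf2 itself was positive, at 1.10 ± 0.16 (SE) in the authors' deposited table. Of genes with an m6A peak 3.05% were called there (117 positive, 32 negative) and of genes without 1.71% (73 and 28). By number of peaks the called share was 2.57% with 1, 3.59% with 2, 3.57% with 3 or 4 and 3.32% with 5 or more. Positive values made up 41.3% of genes without a peak in the authors' deposited table, 53.1% with 1 and 72.6% with 5 or more, around medians of -0.05, 0.01 and 0.07. The median mean count rose alongside, from 377 to 1041 and 2614. Among genes with a mean count of at least 500, the called share was 3.61% with a peak (n = 3904) and 2.74% without (n = 2559). The part of expression in this was not tested further, and the wild-type input libraries entered both the peak list and this comparison.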

How the data were processed

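Libraries were m6A antibody and input RNA of wild-type and Ythdf2 knockout M1-type macrophages and YTHDF2 antibody and input RNA of wild-type cells, 2 in each of 6 groups. Altogether 3 deposited files were used, and 0 hold values per library. The m6A list was made with exomePeak2, per the labels. The submitters' processing notes name HISAT2, HOMER, ChIPseeker and the mm10 build without their roles or versions. The mean normalized count is a signal that the authors averaged over the m6A input libraries of both genotypes, per the file headers. Per the file headers, the authors computed a log2 fold change with its standard error, a Wald score, a p-value and an adjusted p between the genotypes. The YTHDF2 list carries a fold enrichment ratio, a −log10 p and a score that the authors deposited; the sources used here do not name its caller. Knockout peaks were not analysed here, and a few genes and 1 gene class are not reported here.

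Positions are 1-based. A peak was placed on a chromosome if all of it lay inside the RefSeq gene of its name extended by 1000 bp at each end (9289 peaks). Of the rest, 644 had no RefSeq gene of that name and 357 lay or reached farther out. A peak's position is that of its midpoint. The expression table held 5160 of the 5447 genes, by the same symbol or a RefSeq synonym. Gene classes were compared with the sum of the shares of 10 equal groups by mean count, with no test. Intervals are 95% Wilson intervals. With no value per library, no test, count model or replicate check was run on the peaks. Helpers were tested on simulated data. Python 3.11.15, pandas 2.3.3, numpy 2.4.6, scipy 1.17.1 and matplotlib 3.10.9 were used.

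The map, its gene classes and the rule for named genes were chosen with earlier results of these data known. The rule named the 10 genes with the most peaks, the 15 tested genes of highest mean count with a peak and the 15 protein-coding ones without, the 5 widest spans and the 5 of highest mean count with start peaks. It also named the 3 highest members of each class with and without a peak, the 5 lowest genes with 3 or more peaks, the markers and the m6A machinery; other genes named were chosen after their values were seen.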

Additional observations from a re-analysis of the deposited data

How the results depend on the processing

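No paired analysis was possible because the peak list holds no value per library, and leaving out a replicate was not possible for the same reason. The share of m6A genes with more than 1 peak, 47.3% as reported, was 36.5% and 27.0% with peaks up to 200 and 1000 bp apart joined and 53.9% in the upper 50% of tested genes by expression. The median span of 325 bp was 225 bp for peaks of at most 1000 bp, 400 bp after joining and 350 bp in genes with 1 peak. The last 10% of the gene held 36.1% and 43.9% of peaks by their 5′ and 3′ ends, 45.1% of peaks of at most 1000 bp, 43.0% with each gene counted once and 42.3% in genes of at least 10 kb. The first 10% held 9.23% and 5.72% by those ends and 7.17% of peaks of at most 1000 bp. The share of genes with a peak was 19.1% of all genes with a count above 0, 36.6% at 10 or more, 60.4% at 500 or more, 47.4% of protein-coding genes and 46.8% with peaks under other names, an alternative chosen after seeing the data. YTHDF2 overlap fell to 30.8% with 50% coverage and 19.3% with 3-fold enrichment. Called m6A genes were 3.61% at a count of 500 or more. The number of m6A genes lay within 1.5 times under all its alternatives, 4965 to 5489. Classes at or below 0.67 of their sum numbered 8, and 6 with members of at least 500 counts or with length considered. Of 107 alternatives for single classes, 0 left the interval reported for the class, which is wide for small classes.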
